A study of Mus musculus with 10 samples.

Results

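The junctional adhesion molecule (JAM) genes and their CTX relatives encode small cell-surface proteins of the immunoglobulin superfamily. The set described here is Jam2, Jam3, F11r, Cxadr, Esam, Clmp and Igsf11, 7 of the 19939 genes with a measurement of their own. They were listed by name from this family, with no value in the rule, but with earlier results of these data known. Each of the 7 was represented by the only probe set annotated to it alone. Expression was compared between the hippocampus of 5 Dp3Yah mice and 5 control mice with Affymetrix Mouse Gene 1.0 ST arrays (each mouse on its own array), to ask how a segmental trisomy changes the transcriptome.

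Dp3Yah is a Down syndrome (DS) model, Dp(16Hspa13-App)3Yah, in which the part of mouse chromosome 16 between Hspa13 and App is duplicated, so that the genes inside are present in 3 copies against 2 in the controls. App lies at the border, and the study treats the line as having only 2 complete copies of it expressed. The controls were littermates of the trisomic animals, and no mouse of either group received a treatment. The 10 mice were males of 16 weeks, and RNA came from the right and left hippocampus together. The labels give a C57BL/6N background, while the study's methods describe breeding toward C57BL/6J. The labels call the mice of a group biological replicates. The duplication is present in every cell of the body from conception, so that its presence in one cell type cannot be separated from its presence in another.

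JAM proteins sit at contacts between endothelial cells, between epithelial cells and between neural cells. Their outer immunoglobulin domains pair with the same or another family member on the neighbouring cell or with integrins of leukocytes, and their cytoplasmic tails bind PDZ-domain scaffolds such as the polarity protein PAR-3 and ZO-1, which is how they recruit polarity complexes to forming junctions. Within the brain the family is known for roles in the blood-brain barrier (Jam2, Jam3, F11r and Esam), in myelination (Jam2 keeps oligodendrocytes from wrapping neuronal cell bodies), in growing axons (Cxadr) and at synapses (Clmp and Igsf11, whose partners include glutamate receptors).

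Of the 7 genes, Jam2 and Cxadr lie in the duplicated interval. The values of both were higher in Dp3Yah hippocampi, Jam2 by 1.46-fold and Cxadr by 1.16-fold, and neither passed the test over all genes. The other 5 genes, present in 2 copies in both groups, differed by at most 0.11 on the log2 scale in either direction. In limma's test with Benjamini-Hochberg adjustment over all genes, 0 of the 7 passed an adjusted p of 0.05, as against 3 genes or 0.0150% of all genes. At an unadjusted p of 0.05, 2 of the 7 passed (Jam2 and Cxadr, both higher), as against 5.08% of all genes in either direction and 2.49% in the higher direction. The fold change rank statistic that the study used (FCROS, whose value f runs from 0 to 1 and was called high within 0.025 of its upper end) called the same 2 genes, as against 2.54% of all genes. The rank statistic is scaled by the spread of ranks over all genes, so that some genes pass its threshold even where no gene differs. Both called genes are those with the extra copy, and the shares describe this set of genes, not the family at large.

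**Figure D1:**
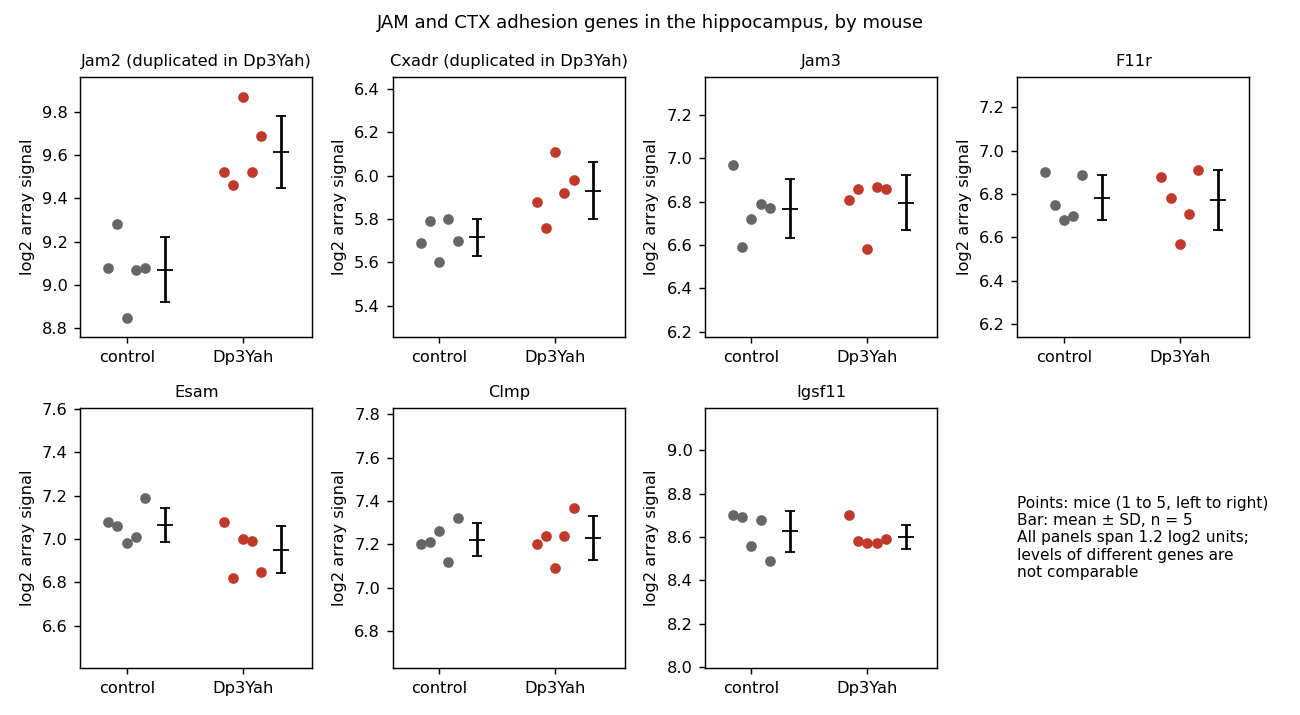
The log2 array signal of each adhesion gene in each mouse, with controls in grey and Dp3Yah in red. Points are mice 1 to 5 from left to right and bars give the mean ± SD (n = 5 per group). The Jam2 groups are apart, with 9.46 as the lowest Dp3Yah and 9.28 as the highest control value, whereas the groups of the other 6 genes overlap.

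Jam2 encodes JAM-B, the ligand of JAM-C on other cells, and lies at chr16:84774123-84826380 (GRCm38.p6, from RefSeq), near the distal end of the interval. Its end is 37403 bases before the end of Gabpa, the last complete gene of the interval, and 1491 bases before Atp5j. The log2 signal of Jam2 was 9.52, 9.46, 9.87, 9.52 and 9.69 in Dp3Yah mice 1 to 5. In control mice 1 to 5 it was 9.08, 9.28, 8.85, 9.07 and 9.08. All 5 Dp3Yah mice lay above the highest control, with Dp3Yah mouse 3 highest of all and control mouse 3 lowest.

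The mean of Jam2 was 9.61 ± 0.168 (SD, n = 5) in Dp3Yah and 9.07 ± 0.151 (SD, n = 5) in control mice. The difference was 0.54 on the log2 scale (SE 0.087, 95% interval 0.35 to 0.73), or 1.46-fold (1.28 to 1.66). Jam2 had rank 6 by p-value and rank 3 by log2 change among all genes, and its limma adjusted p was 0.0998 (unadjusted 3.49e-05). Its adjusted p was 0.0447 with a trended and robust variance, the only limma alternative of 20 under which it passed, and 0.652 in the fit with the replicate number as a block. Groups without overlap in this direction were found for 104 genes, 0.522% of all genes, and in the opposite direction for 0.391%. The annotation places a long non-coding RNA gene, Gm46557, over part of Jam2, and signal from overlapping transcripts was not separated here.

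Cxadr encodes CAR, the receptor by which coxsackieviruses and adenoviruses enter cells and a homophilic adhesion protein of growing axons. It lies at chr16:78301226-78359785, in the proximal part of the interval. Its probe set was dim: the mean over all mice was 5.82, below the median level of all genes of 6.38, while the other 6 members lay above that median. The log2 signal was 5.88, 5.76, 6.11, 5.92 and 5.98 in Dp3Yah mice 1 to 5 and 5.69, 5.79, 5.60, 5.80 and 5.70 in control mice 1 to 5. The groups overlapped through Dp3Yah mouse 2, which lay below control mice 2 and 4, and the other 4 Dp3Yah mice were above the highest control.

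The mean of Cxadr was 5.93 ± 0.132 (SD, n = 5) in Dp3Yah and 5.71 ± 0.084 (SD, n = 5) in control mice. It differed by 0.22 (SE 0.064, 95% interval 0.08 to 0.36), or 1.16-fold (1.05 to 1.28), with a limma adjusted p of 0.922 (unadjusted 0.00533). The interval of Cxadr lay below 0.585, the log2 value of the 1.5-fold change that 3 copies against 2 would give in proportion, while the interval of Jam2 included it. The low signal of the Cxadr probe set stands beside its small change, and its part in that change was not tested.

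**Figure D2:**
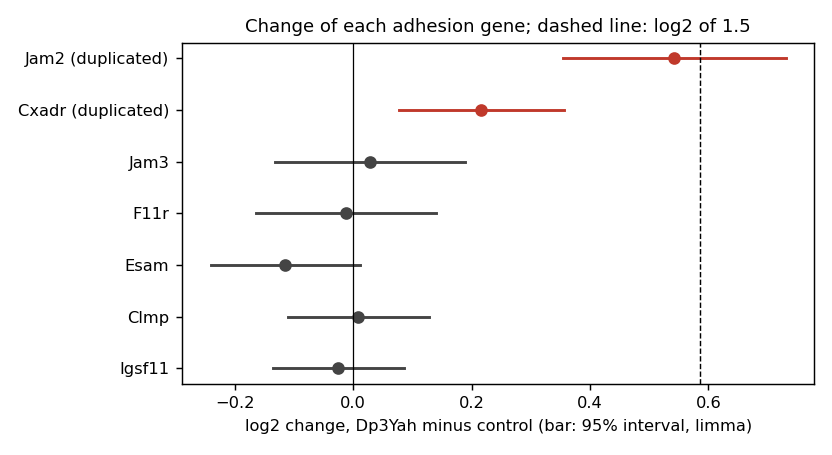
The log2 change of each adhesion gene, Dp3Yah minus control, with its 95% interval from limma (n = 5 per group). A 1.5-fold change corresponds to the dashed line at 0.585. The Jam2 interval of 0.35 to 0.73 includes that line, the Cxadr interval of 0.08 to 0.36 does not, and the intervals of the other 5 genes include 0.

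The difference between the 2 duplicated adhesion genes was tested within each mouse, as the log2 signal of Jam2 minus that of Cxadr. The size of this difference in one mouse has no meaning of its own, because signals of separate probe sets are not on a common scale, but a difference of it between groups shows an unequal change of the 2 probe set signals. It was 3.65, 3.71, 3.76, 3.60 and 3.71 in Dp3Yah mice 1 to 5 and 3.38, 3.49, 3.26, 3.27 and 3.38 in control mice 1 to 5. Dp3Yah mice averaged 3.68 ± 0.063 (SD, n = 5) and controls 3.36 ± 0.094 (SD, n = 5), without overlap. The group difference was 0.33 (95% interval 0.21 to 0.44), with an exact two-sided permutation p of 0.00794, the smallest that 5 mice against 5 allow. The measured signal of Jam2 thus changed more than that of Cxadr, on probe sets that differ in brightness. Among the 17 measured genes of the interval, Jam2 had the third largest change and Cxadr the eleventh. The 9 of them above the median level of all genes held the 9 largest changes. All interval genes from rank 10 down, Cxadr (rank 11) included, lay below that level. The part of probe set brightness in these ranks was not tested. The change of Jam2 stood next to that of Ncam2 (0.58, SE 0.070), another adhesion molecule of the immunoglobulin superfamily, and well above that of its neighbour Atp5j (0.28, SE 0.056), which encodes a subunit of the mitochondrial ATP synthase. These differences between interval genes were not tested.

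Jam2 and Cxadr also varied together between mice of the same group. Over the deviations of the 10 mice from their group means, Pearson's r between Jam2 and Cxadr was 0.889 and Spearman's rho 0.766, given as a description. It was 0.941 within the 5 Dp3Yah mice, 0.833 within the 5 control mice, and 0.782 without Dp3Yah mouse 3 and control mouse 3. The other 20 pairs of adhesion genes had r between -0.587 and 0.662. The highest Jam2 signals of each group were in Dp3Yah mouse 3 (0.26 above its group mean) and control mouse 2 (0.21 above). The same Dp3Yah mouse was highest for Cxadr (0.18 above) and lowest for Jam3 (0.22 below), and control mouse 2 was lowest for Jam3 in its group (0.18 below). These 2 mice also held the highest signals of Cldn10, a claudin, at 10.40 and 10.33 against 9.84 to 10.11 in the other mice. The pattern was not limited to junction genes. The astrocyte markers Aldh1l1 and Slc1a3 were highest of each group in the same 2 mice (10.98 and 10.86 for Slc1a3). The neuronal markers Prox1 and Dsp were lowest of each group in them (8.05 and 8.33 for Prox1). Other markers of the same lists did not follow: Slc1a2 of the astrocyte list was highest, and Fibcd1 of the neuronal list lowest, in other mice. All these values come from the same 10 arrays, and a shared difference in dissection or in hybridisation between mice was not tested.

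**Figure D3:**
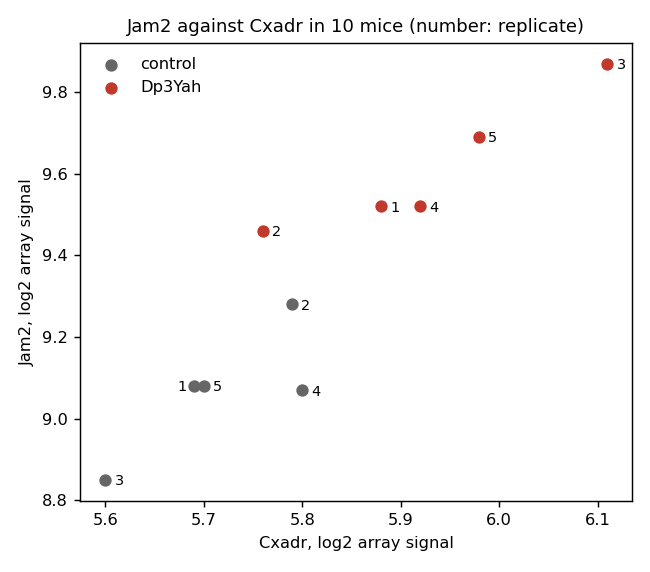
The log2 signal of Jam2 against that of Cxadr in 10 mice, with controls in grey, Dp3Yah in red and the replicate number beside each point. Jam2 signal tended to rise with Cxadr signal within both groups. Control mouse 4 was an exception, with the highest Cxadr of the controls (5.80) and a Jam2 of 9.07. The Dp3Yah mice lie higher on the Jam2 axis (9.46 to 9.87 against 8.85 to 9.28).

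Other genes of the interval, in the same 3 copies, did not all vary with Jam2 between mice of a group. Deviations of Ncam2 (r = 0.791) and Mrpl39 (r = 0.741) went with those of Jam2, those of Atp5j (r = -0.298) and Gabpa (r = -0.470) did not, and those of Usp25 ran the opposite way (r = -0.825). Over all genes, the deviations most like those of Jam2 were those of Ppfia4, a liprin (r = 0.978), Pecam1, an endothelial adhesion molecule of the immunoglobulin superfamily (r = 0.968), and Pafah1b3 (r = 0.964). None of the 3 differed detectably between Dp3Yah and control, with log2 changes of 0.01 (SE 0.048), -0.04 (SE 0.063) and -0.06 (SE 0.048). For Cxadr the most alike were Stradb (r = 0.958), Adcy8, a calcium-stimulated adenylyl cyclase (r = 0.946), and Plpp3 (r = 0.945). Such values are ordinary for 10 mice: the best r of a gene with any other had a median of 0.959 over all genes, and most genes lay between 0.934 and 0.979.

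Jam3, F11r and Esam are the vascular relatives of Jam2, and all 3 are in 2 copies in both groups. Jam3, which encodes JAM-C, the main partner of JAM-B, lies at chr9:27097384-27155421. Its log2 signal was 6.81, 6.86, 6.58, 6.87 and 6.86 in Dp3Yah mice 1 to 5 and 6.97, 6.59, 6.72, 6.79 and 6.77 in control mice 1 to 5. The groups overlapped over most of their range, with 1 low mouse in each. The difference was 0.03 (SE 0.074, 95% interval -0.13 to 0.19, limma adjusted p = 0.981). The interval leaves room for a change of Jam3 of up to 1.14-fold, so that a change of the size of that of Jam2 lies outside it. The mice with the lowest Jam3 in each group are those with the highest Jam2, as given above.

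F11r, which encodes JAM-A of epithelial and endothelial tight junctions, lies at chr1:171437561-171464593. Its log2 signal was 6.88, 6.78, 6.57, 6.71 and 6.91 in Dp3Yah mice 1 to 5 and 6.90, 6.75, 6.68, 6.70 and 6.89 in control mice 1 to 5. The groups covered almost the same range, and their means differed by -0.01 (SE 0.070, 95% interval -0.16 to 0.14, limma adjusted p = 0.993). F11r was higher in the mice with more signal of choroid plexus markers, genes of the secretory epithelium of the ventricles, which borders the hippocampus. Ttr, the transthyretin gene and a defining choroid plexus gene, had a log2 signal of 12.68, 13.04, 9.62, 9.37 and 13.40 in Dp3Yah mice 1 to 5 and 13.25, 8.99, 10.17, 10.29 and 13.33 in control mice 1 to 5. Dp3Yah mice 1, 2 and 5 and control mice 1 and 5 thus held far more of it than the other 5 mice, and the same 5 mice had the 5 highest F11r signals (6.78 to 6.91 against 6.57 to 6.75). The mean of 10 choroid plexus markers ran from 6.05 to 7.74 in Dp3Yah and from 5.99 to 7.86 in control mice, so that both groups held mice of either kind. Since the mice fall into separate clusters of Ttr, no correlation over them is given. With the mean of the 10 choroid plexus markers as a covariate, an alternative chosen after the values were seen, the SE of F11r fell from 0.070 to 0.048, and its difference between the groups was -0.03 (limma adjusted p = 0.966). The SE also fell for Jam3 (0.074 to 0.064), Clmp (0.055 to 0.051) and Cxadr (0.064 to 0.063), and rose slightly for Jam2, Esam and Igsf11. The same covariate left Jam2 at 0.55 (limma adjusted p = 0.134) and Cxadr at 0.22 (adjusted p = 0.910).

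**Figure D4:**
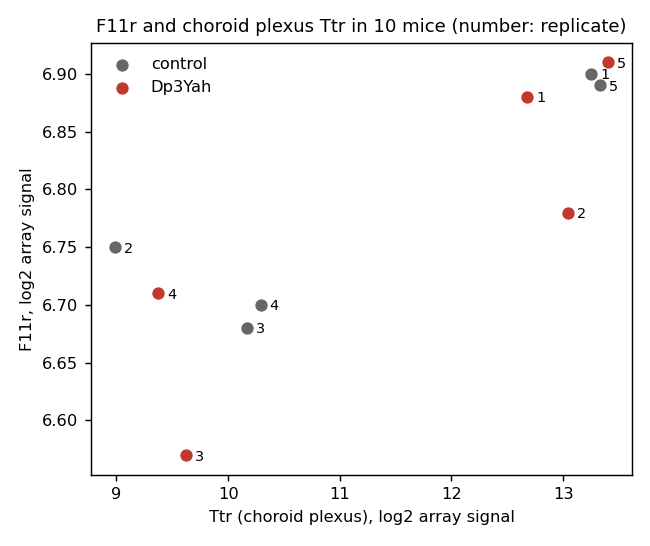
The log2 signal of F11r against that of Ttr, a choroid plexus gene, in 10 mice, with controls in grey, Dp3Yah in red and the replicate number beside each point. The 5 mice with Ttr between 12.68 and 13.40 have F11r between 6.78 and 6.91, and the other 5 have F11r between 6.57 and 6.75, with mice of both groups on either side.

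Esam, an adhesion molecule of endothelial cells and platelets, lies at chr9:37528089-37538319. Its log2 signal was 7.08, 6.82, 7.00, 6.99 and 6.85 in Dp3Yah mice 1 to 5 and 7.08, 7.06, 6.98, 7.01 and 7.19 in control mice 1 to 5. The groups overlapped, although Dp3Yah mice 2 and 5 lay below the lowest control. The difference of -0.11 (SE 0.058, 95% interval -0.24 to 0.01) did not pass (limma adjusted p = 0.922, unadjusted 0.0701). Among 11 measured endothelial markers, 7 were lower and 4 higher in Dp3Yah, with a median change of -0.04. Of the 11, 0 passed an unadjusted p of 0.05 in limma, as against 5.08% of all genes, so that few would pass in a list this short. The mean of these markers ran from 7.51 to 7.67 in Dp3Yah and from 7.49 to 7.68 in control mice. Cldn5, the claudin that seals the blood-brain barrier, differed by -0.11 (SE 0.107, limma adjusted p = 0.950). The part of the endothelial RNA content in the Esam value was not tested. In whole hippocampus, fewer cells of a type and less RNA per cell cannot be told apart.

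Clmp and Igsf11 are the CTX relatives with known glutamate receptor partners. Clmp, which lies at chr9:40682123-40785553 and binds kainate receptors, had a log2 signal of 7.20, 7.24, 7.09, 7.24 and 7.37 in Dp3Yah mice 1 to 5 and 7.20, 7.21, 7.26, 7.12 and 7.32 in control mice 1 to 5. The difference was 0.01 (SE 0.055, 95% interval -0.11 to 0.13, limma adjusted p = 0.993), with groups that overlapped throughout. Igsf11 binds PSD-95 and AMPA receptors at the synapse. Although it lies on chromosome 16, its position at chr16:38892476-39027159 is proximal to the duplicated interval (75755190 to 84863783), and it stays in 2 copies. Its log2 signal was 8.70, 8.58, 8.57, 8.57 and 8.59 in Dp3Yah mice 1 to 5 and 8.70, 8.69, 8.56, 8.68 and 8.49 in control mice 1 to 5. The groups overlapped, with 4 of the 5 Dp3Yah mice within 0.02 of each other and mouse 1 apart from them. The difference was -0.02 (SE 0.051, 95% interval -0.14 to 0.09, limma adjusted p = 0.973). Over the 5 genes in 2 copies, the 95% intervals lay between -0.24 and 0.19, so that no gene of the 5 had an interval that reached the change of Jam2.

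The genes that work with this family were taken as 6 lists: 9 other JAM and CTX relatives, 10 integrin chains, 19 polarity and PDZ scaffolds, 26 claudins and other tight junction proteins, 7 nectin and Cadm genes and 9 kainate and AMPA receptor subunits. Of these 80 measured genes 0 passed the limma test over all genes, with 0.922 as the lowest adjusted p. At an unadjusted p of 0.05, 1 was higher and 3 were lower, 5.0% in all and so close to the 5.08% of all genes, and the rank statistic called 3 in either direction, as against 4.59% of all genes. The median log2 change of the 80 genes was -0.01, and that of all genes was -0.00.

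**Figure D5:**
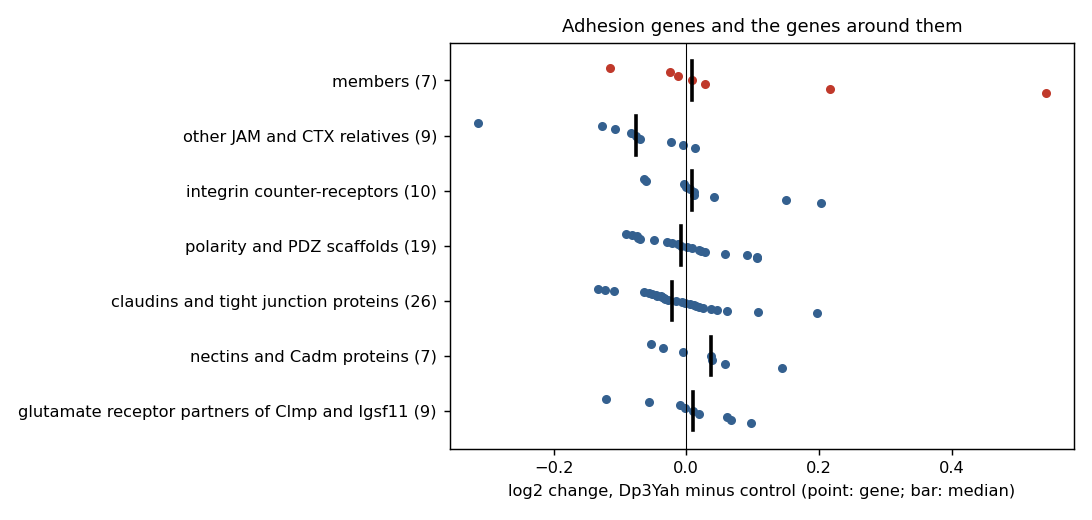
The log2 change, Dp3Yah minus control, of each measured gene of the 7 lists, with the number of genes in brackets and a black bar at the median of each list. Jam2 (0.54) and Cxadr (0.22) are the 2 rightmost red points, and the 80 genes of the other lists lie between -0.31 and 0.20.

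The other JAM and CTX relatives had values on the lower side, with 8 of 9 below 0, a median of -0.08 and 7 of 9 probe sets below the median level of all genes. The lowest was Vsig2 (-0.31, SE 0.122, limma adjusted p = 0.922, unadjusted 0.0238), which lies 936 bases from Esam. Vsig2 had a log2 signal of 6.29, 6.18, 6.63, 6.76 and 6.52 in Dp3Yah mice 1 to 5 and 6.62, 7.12, 6.53, 6.84 and 6.84 in control mice 1 to 5, and its groups overlapped. Gpa33, the A33 antigen of intestinal epithelium, differed by -0.13 (SE 0.051, adjusted p = 0.922, unadjusted 0.0271), Vsig10 by -0.11 (SE 0.067) and Igsf5, also called JAM4, by -0.07 (SE 0.048).

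Among the integrins, some of which bind JAM proteins from leukocytes, 7 of 10 had values above 0 and the median was 0.01. Itgam, the alpha chain of Mac-1 and a partner of JAM-C, was the 1 gene of the 80 whose groups did not overlap. That is 1.25% of the 80, close to the shares over all genes of 0.522% in the higher and 0.391% in the lower direction. Its log2 signal was 6.75, 6.92, 6.75, 6.72 and 6.72 in Dp3Yah mice 1 to 5 and 6.51, 6.70, 6.66, 6.55 and 6.68 in control mice 1 to 5. The difference was 0.15 (SE 0.054, limma adjusted p = 0.922, unadjusted 0.0149). In the brain Itgam is expressed by microglia, and the 9 measured microglia markers were all on the higher side (median 0.09, mean level 7.92 to 8.12 in Dp3Yah against 7.83 to 7.94 in control mice). On that side were 9328 of all 19939 genes. Without Dp3Yah mouse 2 the median of the 9 was 0.06. Of the 9, 3 passed an unadjusted p of 0.05 in the higher direction, which 2.49% of all genes did, with Ctss, a lysosomal protease, at 0.19 (SE 0.055) and Cx3cr1, the fractalkine receptor, at 0.15 (SE 0.058), and 0 passed the adjusted one. Whether the Itgam value follows the amount of microglial RNA was not tested. Itga4, the alpha chain of VLA-4, through which JAM-B can be bound, differed by 0.20 (SE 0.108, adjusted p = 0.922), Itgb1 by -0.06 (SE 0.063) and Itga9 by -0.06 (SE 0.087).

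The intracellular partners of the family had values on both sides of 0. Of the 19 scaffolds 9 had values above 0 and 10 below, with a median of -0.01. In limma 0 of them passed an unadjusted p of 0.05, which 5.08% of all genes did. The smallest p-values were those of Pard6g (0.11, SE 0.051), Cask (0.11, SE 0.053), Pard6b (-0.07, SE 0.039) and Tjp3 (-0.08, SE 0.051). Among the claudins and tight junction proteins 10 of 26 were above 0, with a median of -0.02. An unadjusted p of 0.05 was passed by 1 of the 26, Cldn16 at -0.12 (SE 0.054), as against 5.08% of all genes. Cldn4 differed by -0.13 (SE 0.074) and Cldn1 by 0.20 (SE 0.123). Only 6 of these 26 probe sets lay above the median level of all genes.

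The nectins and Cadm proteins, the other immunoglobulin adhesion families of junctions and synapses, had 4 of 7 values above 0 and a median of 0.04, with Nectin3 at 0.14 (SE 0.162) and Cadm3 at 0.04 (SE 0.042). The kainate and AMPA receptor subunits had 5 of 9 above 0 and a median of 0.01, with Grik5 at 0.06 (SE 0.040), Gria3 at 0.07 (SE 0.047), Grik1 at -0.06 (SE 0.040) and Gria4 at 0.10 (SE 0.111). Neither list held a gene that passed an unadjusted p of 0.05 in limma, which 5.08% of all genes did, so that few would pass in lists this short.

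The tissue label was checked with markers of 11 cell types. All 10 neuronal markers lay above the median level of all genes. Their changes went in both directions, with 5 of 10 above 0, from -0.24 (C1ql2) to 0.25 (Fibcd1). Their mean was 9.84 to 10.04 in Dp3Yah and 9.88 to 10.02 in control mice. The ranges also overlapped for astrocytes (9.66 to 9.76 against 9.58 to 9.74), oligodendrocytes (9.54 to 10.11 against 9.57 to 9.91), their precursors (7.50 to 7.65 against 7.53 to 7.66), pericytes and smooth muscle (7.35 to 7.44 against 7.36 to 7.46), ependymal cells (5.79 to 6.11 against 5.69 to 6.03), meningeal fibroblasts (7.07 to 7.32 against 7.09 to 7.24) and blood cells (5.14 to 5.25 against 5.14 to 5.32). Of the 96 measured marker genes 0 passed the limma test, with 0.708 as the lowest adjusted p, and 5 were higher and 2 lower at an unadjusted p of 0.05, 7.29% in all as against 5.08% of all genes, while the rank statistic called 8, as against 4.59% of all genes. In 2 of them every Dp3Yah mouse was below every control, as in 0.391% of all genes: C1ql2, a synaptic protein of dentate granule cells (-0.24, SE 0.052), and Tagln, a smooth muscle gene (-0.16, SE 0.040).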

How the data were processed

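The deposited values were on the log2 scale, 1 per probe set. The submitters' processing notes name RMA, limma and mm10, with versions not given in the sources used here. Of 35556 probe sets 21789 were annotated to 1 gene, 1621 to several and 12146 to none here. Only the first kind was used, with the highest mean for the 998 genes that had more than 1. RefSeq (GRCm38.p6) gave symbols and positions for 19856 of 19939 genes. The array medians lay between 5.64 and 5.71, 0 pairs of arrays were identical, and the median SD of a gene within a group was 0.087. The number of arrays limits the precision.

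Groups were compared with limma 3.58.1 in R 4.3.3 (lmFit, eBayes, two-sided, Benjamini-Hochberg over all genes, threshold 0.05, no covariate). The limma step was run on simulated data with known changes, as a check of the code only. Those data hold no variation shared between genes, unlike the arrays here. The study's rank statistic was rewritten with a trim of 0.25 over 25 array pairs and a threshold of 0.025 from either end of its range. Likeness was Pearson's r of deviations from group means. The alternatives were a replicate block, all probe sets or their median, a filter on dim genes, quantile and cyclic loess normalisation, centring on array medians, array weights, eBayes with trend and robust settings, each mouse left out, and a choroid plexus covariate, chosen after seeing the data.

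The adhesion genes and all lists (interval genes, 6 lists of related genes, 11 cell type marker lists) were chosen with earlier results of these data known. Named were the adhesion genes, every called gene and up to 4 genes of the smallest p of each list (most marker genes of that kind are not printed), the 3 genes most like each adhesion gene, Cldn5, Ttr and markers without overlap.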

Additional observations from a re-analysis of the deposited data

Results flagged for a closer look

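In 52 groups of 5 mice, made of the adhesion genes and of the mean of each list, the lowest and the highest mouse were compared with the rest of their group, and 3 values stood apart. The rule by which they stood apart is a gap to the nearest mouse above 0.71 of the group's whole range, which chance exceeds in about 1 group in 20.

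Jam3 in Dp3Yah mouse 3 had a log2 signal of 6.58, far below the other 4 mice of its group (gap of 0.794 of the range). The same mouse had the lowest mean of the 10 integrin genes in its group, 6.36 (gap of 0.720), and the highest Jam2 and Cxadr. Igsf11 in Dp3Yah mouse 1 had a log2 signal of 8.70, far above the other 4 (gap of 0.858), which is also the highest control value.

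The genes whose deviations were most like those of the adhesion genes in 2 copies were Nfatc4 (r = 0.958), Jag1 (0.954) and Cryab (0.943) for Jam3, Pcolce2 (0.935), Cnot10 (0.934) and Kif27 (0.931) for F11r, and Pros1 (0.981), Siah3 (0.981) and Pura (0.949) for Esam. For Clmp they were Epb41l4a (0.960), Tgfa (0.915) and Bub1b (0.904), and for Igsf11 Ints10 (0.944), Fam186a (0.916) and Olfr47 (0.913).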

How the results depend on the processing

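The log2 changes of Jam2 and Cxadr stayed positive under every alternative run. Jam2 was 0.54 with an adjusted p of 0.0447 under a trended and robust variance, and Cxadr did not pass under any limma alternative (lowest adjusted p 0.671). The rank statistic called both (f = 0.9987 and 0.9954). For F11r f was 0.5222, on the other side of 0.5 from its change. With array weights Clmp was at -0.0028. Leaving out 1 mouse at a time gave 0.478 to 0.5951 for Jam2, 0.171 to 0.2603 for Cxadr, -0.0179 to 0.083 for Jam3, -0.1482 to -0.0827 for Esam, -0.0597 to -0.006 for Igsf11, -0.0476 to 0.0392 for F11r, -0.0278 to 0.0422 for Clmp, and 0.3014 to 0.3587 for the difference between Jam2 and Cxadr.

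Over all genes 6 passed with the trended and robust variance, 5 with array weights and 1 to 4 without 1 mouse. The rank statistic, which has no adjustment for the number of genes, called 915 in both directions, or 4.59% of all genes. Of the adhesion genes these were 1 with that variance and 2 with the rank statistic. Of the 17 interval genes 3 passed in the main comparison (Mrpl39, Hspa13 and Ncam2), 6 with that variance, 5 with array weights, 12 with the rank statistic and 1 to 3 without 1 mouse. Of the 80 related genes and the 96 markers, 3 and 8 passed with the rank statistic. The median change without 1 mouse was 0.2398 to 0.3032 for the interval (0.28 with all mice), -0.0148 to 0.0582 for the glutamate receptor subunits and 0.0002 to 0.0551 for pericytes and smooth muscle. Without Dp3Yah mouse 4 or control mouse 3, 4 or 5, Mrpl39 was the 1 gene that passed (adjusted p of Hspa13 0.0538 to 0.0713), and without Dp3Yah mouse 5 Ncam2 did not pass (0.0597).

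With the replicate number as a block, Jam2 kept a change of 0.54 (adjusted p = 0.652), and the difference between Jam2 and Cxadr was 0.326 with an exact p of 0.0625, the smallest that 5 pairs allow. The labels do not say whether mice of the same number belong together. Deviations of mice of the same number had r between -0.364 and 0.315, and 2 of 5 numbers matched best with their own. These are too few values to decide whether the numbers pair the mice. Cxadr has no value under the filter on dim genes, which removed it.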
